A study of Mus musculus with 6 samples.

Results

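De novo lipogenesis, the making of fatty acids from carbohydrate carbon, was followed through 10 genes in 6 mouse livers: Acly, Me1, Acaca, Acacb, Fasn, Elovl6, Scd1, Srebf1, Mlxipl and Thrsp. The genes were taken by name from the array annotation, and together they have 24 probes of 56605 and are 10 of 37074 gene names. All 10 genes had at least 1 probe well above background, and 22 of the 24 probes passed that filter. The hosts were nude mice, which have no functional thymus and so lack mature T cells. Mice of the sEV group received small extracellular vesicles of SW620 cells, a human line from a colorectal cancer, purified and given through the tail vein, with 20 µg in each of 10 injections over 21 days. Control mice had the same number of injections of sterile PBS. From the 5 mice of each group 3 livers were arrayed, with 1 array per liver. The vesicles are human and the host is an immunodeficient mouse, RNA came from whole liver tissue, and feeding state, hour of dissection, age and sex are not given in the sources used here.

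Lipogenesis starts when citrate leaves the mitochondrion and ATP citrate lyase (Acly) splits it into acetyl-CoA. Acetyl-CoA carboxylase makes malonyl-CoA, fatty acid synthase (Fasn) builds palmitate from it with NADPH from malic enzyme (Me1) and the pentose phosphate pathway, and Elovl6 and Scd1 lengthen and desaturate the product. In liver the genes are known to rise after carbohydrate feeding through SREBP1c (from Srebf1), which insulin and LXR raise, and through ChREBP (Mlxipl), which responds to glucose.

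All values are normalized log2 signals: log2 of the background-subtracted signal minus the 75th percentile of the same array. A difference of 1 is a 2-fold change. The brightest probe stood for its gene in the fit over all 19446 genes that passed the filter. Levels of different probes were not read as relative abundance, since probes differ in their response.

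The ends of 6 probes are printed first, because those of Acacb and Scd1 carry the results on these genes and the Mlxipl probe, which did not stand for its gene, shares sequence with other genes' probes. Each line gives the last 30 bases of a 60-base probe, 5′ to 3′ in lower case. Capitals mark the polyadenylation signal AATAAA or a stretch of 20-base runs shared with probes of other genes.
Acacb last probe: ctgaaagagctgcaaAATAAActatttttt
Acacb middle probe: tcttctatcacgagaacaaggttgtctgta
Acacb first probe: gcttctctttctgacttgcctgcttttctc
Scd1 bright probe: atctcaacagtgtgaattaagtgtccatag
Scd1 second probe: agcaatggatggagccaacaccatgcggat
Mlxipl repeat-sharing probe: taCTACACAGAGAAACCCTGTCTCAAAAAA
In the mm9 coordinates of the array annotation, the 3 Acacb probes lie on the + strand at chr5:114700702-114700761 (last), chr5:114667674-114667733 (middle) and chr5:114596822-114615564 (first). The first one covers 18743 bases of genome with 60 bases of probe, so it joins separate exons. The bright Scd1 probe lies on the - strand at chr19:44469387-44469446. The second is annotated on the + strand at chr19:44471140-44471199, so it is written opposite to the gene's other probe. The Mlxipl probe shares runs of 20 bases with 9 probes of 9 other gene names, and 28 of its bases lie in such runs. The other 23 member probes share no such run with a probe of another gene. Only exact runs were compared, so inexact matches to repeats or other genes were not searched.

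Promoter sequence was taken from RefSeq (GRCm38.p6) as the 250 bases before each annotated start, and 9 of the 10 genes had at least 1 entry, 13 in all. Whether transcription in liver begins at each of these annotated starts was not tested. Fasn, Elovl6 and Acacb are shown because Fasn and Elovl6 had the widest spread among sEV livers and Acacb was the 1 gene that passed the test. Capitals mark CCAAT on either strand, the box bound by NF-Y, and matches may overlap.
Fasn promoter: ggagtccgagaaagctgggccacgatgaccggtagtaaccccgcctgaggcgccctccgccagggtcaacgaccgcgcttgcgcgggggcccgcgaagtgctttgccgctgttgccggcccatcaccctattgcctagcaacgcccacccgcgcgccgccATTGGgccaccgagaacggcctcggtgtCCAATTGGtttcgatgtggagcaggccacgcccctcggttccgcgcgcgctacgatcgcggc
Elovl6 promoter: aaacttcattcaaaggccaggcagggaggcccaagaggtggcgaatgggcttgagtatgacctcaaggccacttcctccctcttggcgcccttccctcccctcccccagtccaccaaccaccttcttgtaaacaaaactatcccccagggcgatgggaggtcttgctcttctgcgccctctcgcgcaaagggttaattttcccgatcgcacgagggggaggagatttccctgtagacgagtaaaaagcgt
Acacb promoter: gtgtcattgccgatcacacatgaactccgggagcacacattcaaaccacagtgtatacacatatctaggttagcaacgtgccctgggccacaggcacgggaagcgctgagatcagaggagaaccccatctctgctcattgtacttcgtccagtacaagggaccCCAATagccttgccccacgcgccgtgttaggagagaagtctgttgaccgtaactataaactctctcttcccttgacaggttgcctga
These windows are chr11:120824548-120824797 on the - strand for Fasn, chr3:129532136-129532385 on the + strand for Elovl6 and chr5:114165268-114165517 on the + strand for Acacb. The Fasn window holds 3 CCAAT matches, 2 of them overlapping as CCAATTGG, and the Acacb window holds 1. Of the 13 windows, 7 hold CCAAT, against 33.9% of 32841 promoters. GGGCGG, the GC box, is in 5 windows against 32.7% of promoters. CACGTG, the E-box core, is in 1 window (Mlxipl) against 6.02%, and TCACNCCAC, a form of the sterol regulatory element, is in 1 (the other Mlxipl start) against 1.05%. Both strands were searched, and a match is only a match of letters.

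In the comparison of sEV with control livers, 1 of the 10 genes passed the test (limma, Benjamini-Hochberg over all genes, threshold 0.05), which was Acacb, and it was higher. Of all genes tested 17.0% passed, 9.08% as higher and 7.95% as lower. The higher genes were 53.3% of the calls, and 36.9% when arrays were scaled to their medians. The median log2 fold change of the 10 genes was -0.04 and that of all genes was 0.03. Estimates were negative for 7 genes and positive for 3. For 4 genes (Acacb, Scd1, Me1 and Srebf1) the groups did not overlap, where 40.9% of all genes had groups that did not overlap. Neither count lies far from its background share.

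**Figure D1:**
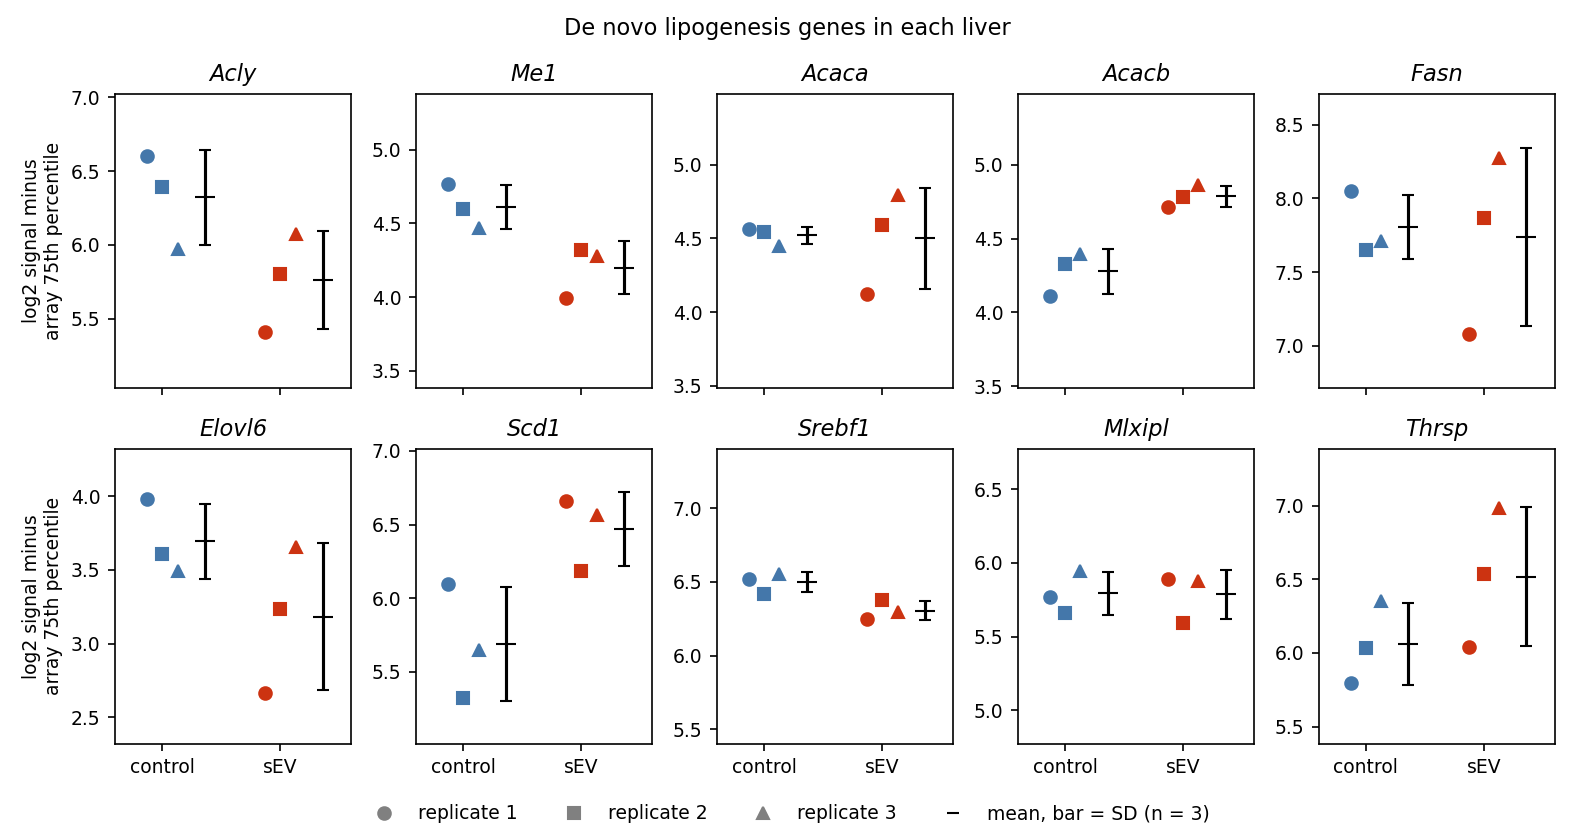
Normalized log2 signal (y axis, log2 scale, 2 units high in every panel) of the 10 genes in the 3 control livers (blue) and the 3 sEV livers (red), with symbols for the replicate and mean with SD beside them. The sEV 1 liver (red circle) is the lowest of all 6 for Acly, Me1, Acaca, Fasn, Elovl6 and Srebf1 and the highest for Scd1.

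Among the genes that supply carbon and reducing power, Acly and Me1 both had lower means in sEV livers, and neither passed the test. Acly gave 6.60, 6.39 and 5.97 in control livers 1, 2 and 3 and 5.41, 5.80 and 6.07 in sEV livers 1, 2 and 3. The ranges overlapped because the highest sEV liver lay above the lowest control liver. The log2 fold change was -0.56 ± 0.22 (SE, n = 3 per group), with an adjusted p of 0.135. Its second probe, which was dim (means of -1.66 in control and -1.82 in sEV livers), gave -0.16 ± 0.20. Me1 gave 4.77, 4.59 and 4.47 in control livers and 3.99, 4.32 and 4.28 in sEV livers. Every sEV liver was below every control liver. The log2 fold change was -0.41 ± 0.13 with an adjusted p of 0.0757, and with arrays scaled to their medians it was -0.49 with an adjusted p of 0.0448. The second Me1 probe, in another stretch of the gene, gave -0.15 ± 0.14 with overlapping groups.

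The 2 acetyl-CoA carboxylases gave different estimates. Acaca, the cytosolic form that feeds fatty acid synthesis, gave 4.56, 4.55 and 4.45 in control livers and 4.12, 4.59 and 4.79 in sEV livers. The control livers were close together, and the sEV livers lay on both sides of them. Acaca had a log2 fold change of -0.02 ± 0.17, with a 95% interval from -0.44 to 0.40 and an adjusted p of 0.951. Acaca has 7 probes, of which 5 passed the filter with log2 fold changes from -0.28 to 0.16 and none called. The other 2 were not well above background on any array.

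Acacb codes for the carboxylase at the mitochondrial surface, whose malonyl-CoA is known to inhibit entry of fatty acids through CPT1. It gave 4.11, 4.33 and 4.39 in control livers and 4.71, 4.79 and 4.86 in sEV livers. All sEV livers were above all control livers, and the sEV values were the closer together. Acacb rose by 0.51 ± 0.10, which is 1.42-fold, with a 95% interval from 0.26 to 0.76 and an adjusted p of 0.0241. That is the last probe of the gene, the one printed with AATAAA. The middle probe gave 0.38 ± 0.11 (adjusted p 0.0747 over 28760 probes) and the first 0.27 ± 0.12 (adjusted p 0.197), and neither had overlapping groups. The first probe was dim, with means of -3.38 in control and -3.11 in sEV livers, and the middle one lay at -0.49 and -0.11. With every probe kept as its own row, 1 of the 22 member probes passed, where 14.1% of all probes did. The Acacb call ended with median scaling (0.43, adjusted p 0.0574), with no filter on dim probes (adjusted p 0.105), and in slide row 1, where sEV 1 is the only sEV liver (0.44, adjusted p 0.176 with row as a block and 0.226 on those arrays alone). It also ended without control 1 (0.42, adjusted p 0.0597), control 2 (0.54, adjusted p 0.0630), sEV 2 (0.51, adjusted p 0.0678) or sEV 3 (0.47, adjusted p 0.0745).

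The ratio of Acacb to Acaca within an array does not depend on how arrays were scaled. As a log2 value it was -0.46, -0.21 and -0.06 in control livers and 0.59, 0.20 and 0.07 in sEV livers. The groups did not overlap, and the ratio was 1.44-fold higher in sEV livers. The ratio of Scd1 to Elovl6 was the other pair computed. It was 2.12, 1.71 and 2.16 in control livers and 3.999, 2.95 and 2.91 in sEV livers, a 2.44-fold higher ratio, again without overlap. The 2 pairs were chosen after their values were seen, so the ratios were not tested, and a ratio shows unequal change, not which gene moved.

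Fasn, the synthase that makes palmitate, was the member with the widest spread among sEV livers. It gave 8.05, 7.65 and 7.71 in control livers and 7.08, 7.87 and 8.27 in sEV livers. The sEV group held both the lowest and the highest of the 6 livers. Its log2 fold change was -0.07 ± 0.30, with a 95% interval from -0.80 to 0.66 and an adjusted p of 0.899. Leaving out sEV 1 turned the direction, to 0.26 with an adjusted p of 0.368. Fasn has 1 probe, at chr11:120668460-120668519 on the - strand (mm9), whose last 30 bases follow.
Fasn probe: gtgtgaagaagtgtctggactgtgtcattt

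Elovl6 lengthens palmitate towards stearate, and Scd1 puts the first double bond into both. Elovl6 gave 3.98, 3.61 and 3.49 in control livers and 2.66, 3.23 and 3.65 in sEV livers, an overlapping and uneven set in which sEV 3 lay among the controls. Elovl6 thus had a log2 fold change of -0.51 ± 0.27 with an adjusted p of 0.231, and without sEV 1 it was -0.25. Scd1 gave 6.10, 5.33 and 5.65 in control livers and 6.66, 6.18 and 6.56 in sEV livers. All sEV livers were above all control livers, though sEV 2 was close to control 1. The log2 fold change was 0.78 ± 0.22, a 1.71-fold difference with a 95% interval from 0.24 to 1.32 and an adjusted p of 0.0612. The second Scd1 probe, on the other annotated strand, gave 0.79 ± 0.22 (adjusted p 0.0649) and again had no overlap. This second probe was dim, with means of -2.61 in control and -1.83 in sEV livers. Which strand's transcript it reads was not tested. Scd1 passed the threshold in 6 of 18 other settings, among them normexp background correction (0.74, adjusted p 0.0381) and the model with a variance trend (adjusted p 0.0461).

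**Figure D2:**
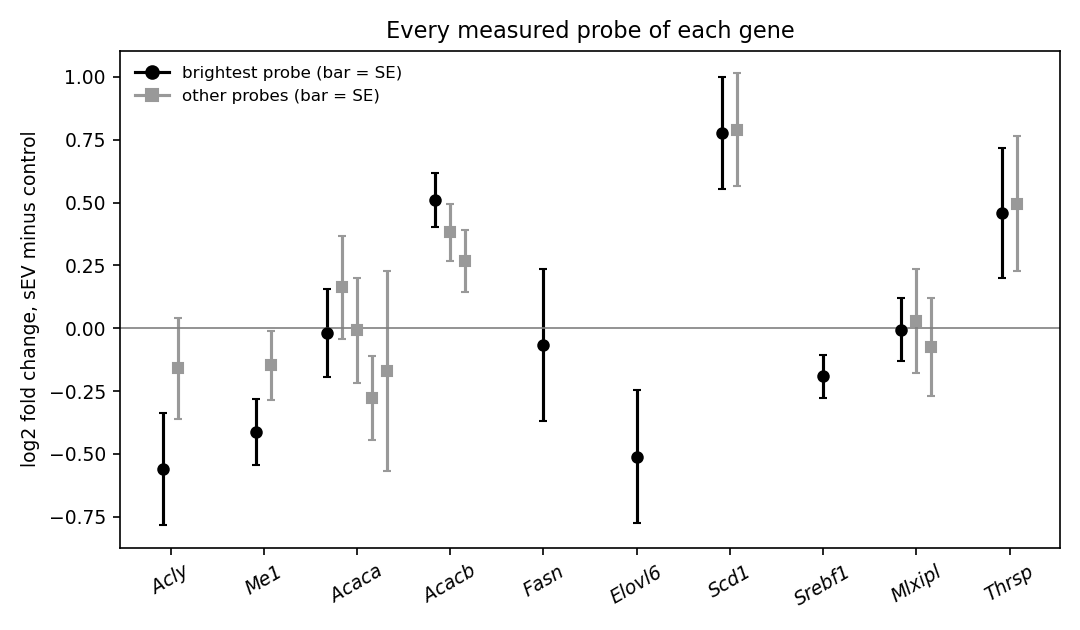
Log2 fold change of sEV minus control (y axis) with its standard error for each of the 22 probes that passed the filter, by gene, the brightest probe in black and the others in grey. The 3 Acacb probes and both probes of Scd1 and Thrsp lie above 0, both probes of Acly and Me1 lie below 0, and Acaca and Mlxipl have probes on both sides.

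Of the regulators, Srebf1 had a small difference with tight groups. It gave 6.52, 6.42 and 6.55 in control livers and 6.25, 6.37 and 6.29 in sEV livers. Every sEV liver was below every control liver by a narrow margin. Srebf1 had a log2 fold change of -0.19 ± 0.08 with an adjusted p of 0.163. Srebf1 has 1 probe and 3 annotated start sites in the promoter table, so the SREBP1a and SREBP1c transcripts were not measured apart here. Mlxipl gave 5.77, 5.66 and 5.95 in control livers and 5.89, 5.59 and 5.88 in sEV livers, which overlapped throughout. Its log2 fold change was -0.01 ± 0.12 with a 95% interval from -0.30 to 0.29 and an adjusted p of 0.977. Its other probes gave 0.03 and, for the repeat-sharing probe printed above, -0.07. Thrsp, known as Spot14, codes for a small nuclear and cytosolic protein that rises with thyroid hormone and carbohydrate feeding. It gave 5.80, 6.03 and 6.35 in control livers and 6.04, 6.53 and 6.98 in sEV livers. The groups overlapped, since sEV 1 lay among the controls. Thrsp had a log2 fold change of 0.46 ± 0.26 with an adjusted p of 0.266, and the second probe gave 0.49 ± 0.27. The estimate was 0.70 without sEV 1 and 0.23 without sEV 3.

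Several of the 10 genes differed more between sEV livers than genes usually did. The SD among sEV livers was 0.61 for Fasn, larger than for 95.9% of all genes, 0.50 for Elovl6, 0.47 for Thrsp and 0.34 for Acaca. The median SD of the 10 genes was 0.29 among sEV livers, against 0.14 over all genes, and 0.18 among control livers, against 0.13. Among the 4210 genes with a mean at least that of the dimmest member it was 0.09 in sEV livers and 0.10 in control livers. Acaca had the sharpest contrast, with an SD 5.70 times as large in sEV as in control livers. The opposite held for Acacb (0.07 against 0.15) and Scd1 (0.25 against 0.39).

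**Figure D3:**
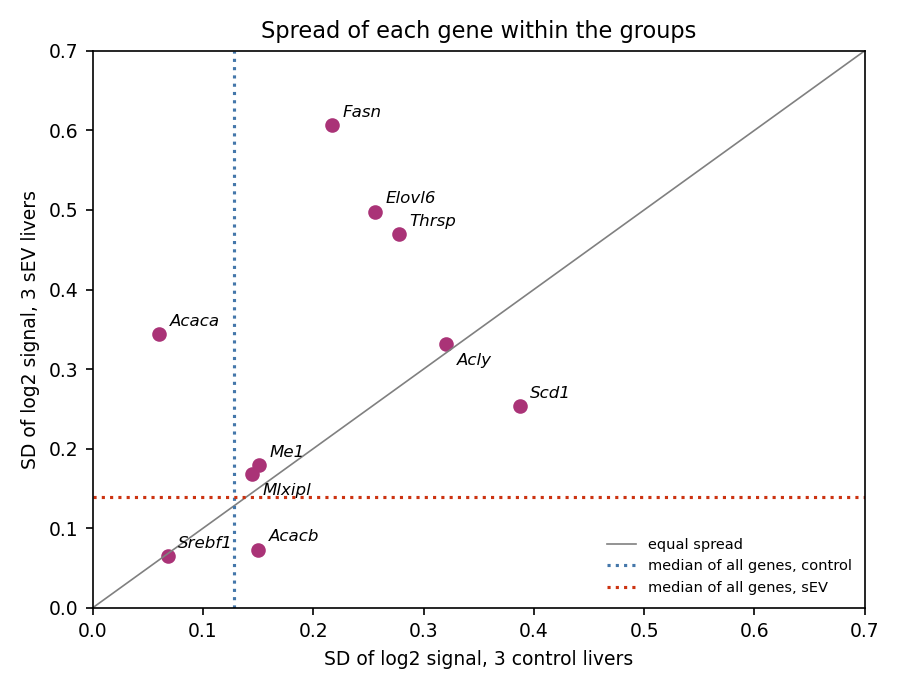
SD of the normalized log2 signal among 3 control livers (x axis) and 3 sEV livers (y axis) for the 10 genes, with the line of equal spread and the medians of all genes (0.13 and 0.14) dotted. Fasn, Elovl6, Thrsp and Acaca lie well above the line, and Scd1 and Acacb lie below it.

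The wide spread ran along the same livers for several genes. The sEV 1 liver was the lowest of the 6 for 6 of the 10 genes, where it was the lowest for 15.2% of all genes. The sEV 3 liver was the highest of the 6 for 4 of them (Acaca, Acacb, Fasn and Thrsp), against 18.97% of all genes. Gapdh and Actb, which code for common reference proteins, were also lowest in sEV 1, at 8.73 and 8.32, and so was Alb, at 9.92. These 3 genes did not pass the test.

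The position of arrays on the slide touches the same liver. All arrays were on 1 slide and read in 1 scan. The 3 controls and sEV 1 were in slide row 1, and sEV 2 and sEV 3 were in row 2. With row as a block the comparison rests on 1 sEV liver, sEV 1, against the 3 controls, so it says nothing of the other sEV livers, and its adjusted p has little weight in either direction. In that fit 3.68% of all genes passed and 0 of the 10 genes did in limma. The log2 fold change was then 0.44 for Acacb (adjusted p 0.176), 0.97 for Scd1 (adjusted p 0.162), -0.62 for Me1 (adjusted p 0.0939), -0.91 for Acly (adjusted p 0.131), -1.03 for Elovl6 (adjusted p 0.0974) and -0.73 for Fasn (adjusted p 0.155). Fitting the 4 arrays of row 1 alone must give the same estimates, because only that row holds both groups, so it adds no second check. Acaca moved to -0.40 and Srebf1 to -0.25, while Mlxipl (0.10) and Thrsp (-0.02) changed sign. Row 2 holds no control, so that the row and a difference between sEV livers cannot be told apart.

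**Figure D4:**
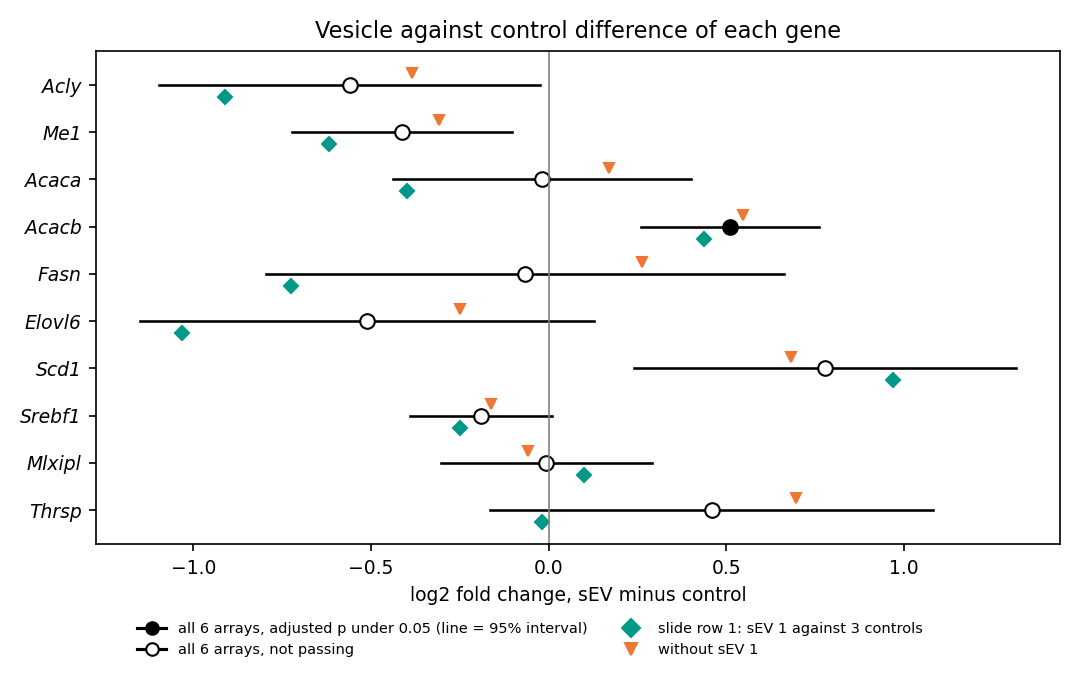
Log2 fold change of sEV minus control (x axis) for the 10 genes over all arrays with 95% intervals (circles, filled where the adjusted p is under 0.05), in slide row 1 (diamonds) and without sEV 1 (triangles). Acacb, at 0.51, is the 1 filled circle, and the diamond and triangle of Fasn (-0.73 and 0.26) and of Acaca (-0.40 and 0.17) lie on opposite sides of 0.

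Placeholder gene names of set forms, such as clone or predicted-gene identifiers, were left out of the search for profiles like that of Fasn. Among the rest, the 5 genes most like Fasn over the 6 livers were Dagla, Chst2, Ccdc30, AA619741 and Wls, each gene taken minus its own mean. The name AA619741 is also an identifier, of a form that was not left out. The root mean square differences of the 5 genes from Fasn were 0.09, 0.10, 0.11, 0.12 and 0.12 on the log2 scale. No other member was among the 5. Dagla (mean -3.13 in control and -3.29 in sEV livers), Chst2 (-3.48 and -3.49) and Ccdc30 (-2.70 and -2.92) had dim probes. Dagla was well above background in only 2 of 3 sEV livers, and Chst2 in only 2 of 3 livers of each group.

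The genes around the pathway were read from 9 lists of 175 genes, of which 171 passed the filter. Of these, 17 were higher, 22 were lower and 132 did not pass, so 22.8% passed against 17.0% of all genes, and their median log2 fold change was 0.03. The lists were chosen with earlier results of these data known, and no test of a list was made. Of the 33 genes past the threshold that are named from these lists, all kept their direction and 15 kept their call with each of the 6 livers left out in turn. Values for slide row 1 are given as estimates of sEV 1 alone against the controls.

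In the list of SREBP1c and LXR control, 1 of 22 measured genes was higher, 1 was lower and 20 did not pass. The list median was 0.08. The 2 that passed were the INSIG proteins, which hold the SREBP-SCAP complex in the endoplasmic reticulum. Insig2 gave 6.02, 5.90 and 5.89 in control livers and 7.01, 6.86 and 7.21 in sEV livers, and it rose by 1.09 ± 0.11 (adjusted p 0.00386). Insig1, itself an SREBP target, gave 2.85, 2.69 and 2.78 in control livers and 1.76, 1.99 and 2.33 in sEV livers, with a log2 fold change of -0.75 ± 0.15 (adjusted p 0.0246). Both genes had groups that did not overlap, and in row 1 their estimates were 1.07 and -1.01. The Insig2 call held with any liver left out, while the Insig1 call ended without control 1, control 2, control 3 or sEV 2 (highest adjusted p 0.0835).

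Of 22 genes of insulin signalling to lipogenesis, 2 were higher, 2 were lower and 18 did not pass. Their median log2 fold change was 0.04. Irs2, a docking protein of the insulin receptor, rose by 1.38 ± 0.20 (adjusted p 0.00967). The receptor gene Insr rose by 0.55 ± 0.10 (adjusted p 0.0180). Grb10, an adaptor that restrains the receptor, had -1.27 ± 0.18 (adjusted p 0.0101), and Tsc1, an inhibitor of mTORC1 signalling, had -0.42 ± 0.11 (adjusted p 0.0434). In row 1 the estimates were 1.24 for Irs2, 0.65 for Insr, -1.45 for Grb10 and -0.34 for Tsc1. The Grb10 probe was dim, well above background in 2 of 3 sEV livers, and with normexp its estimate was -0.45. The Tsc1 call ended with any liver left out (adjusted p 0.0599 to 0.117) and that of Insr without control 1 or control 2 (highest adjusted p 0.0594).

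Of 17 ChREBP partners and glucose-responsive genes, 1 was higher, 2 were lower and 14 did not pass. The list median was 0.14. Mlxip, a paralogue of ChREBP, rose by 0.40 ± 0.10 (adjusted p 0.0480). Klf10, a transcription factor gene, had -1.11 ± 0.22 (adjusted p 0.0224). Fgf21, a hormone gene of the liver, had -1.82 ± 0.42 (adjusted p 0.0329). Estimates in row 1 were 0.38, -1.19 and -2.10. The Mlxip call ended with any liver left out (adjusted p 0.0616 to 0.131) and with median scaling (0.32, adjusted p 0.142). The Klf10 call ended without control 2, control 3, sEV 1 or sEV 3 (highest adjusted p 0.0677), and the Fgf21 call without control 1, control 2, sEV 1 or sEV 2 (highest adjusted p 0.0950).

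In the supply of citrate, acetyl-CoA and NADPH, 2 of 19 genes were higher, 2 were lower and 15 did not pass. Their median log2 fold change was 0.17. Aacs, the cytosolic enzyme that turns acetoacetate into acetoacetyl-CoA for lipid synthesis, gave 4.79, 4.32 and 4.38 in control livers and 1.86, 2.60 and 3.09 in sEV livers. The groups were far apart, and sEV 1 was again the lowest. Its log2 fold change was -1.98 ± 0.31 (adjusted p 0.0130), and in row 1 the estimate was -2.63. Acss1, a mitochondrial acetyl-CoA synthetase, had -0.95 ± 0.11 (adjusted p 0.00511), and the size depended on background correction, with -0.35 under normexp. Pdha1, a subunit of pyruvate dehydrogenase, rose by 0.56 ± 0.09, and G6pdx, the entry enzyme of the pentose phosphate pathway, rose by 0.45 ± 0.11. In row 1 the estimates were -0.97 for Acss1, 0.57 for Pdha1 and 0.49 for G6pdx. The G6pdx call ended with any liver left out (adjusted p 0.0550 to 0.102) and with median scaling (0.37, adjusted p 0.0923).

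The next list joined regulation of acetyl-CoA carboxylase and fatty acid synthase with genes of malonyl-CoA. Of its 19 measured genes, 1 was higher, 1 was lower and 17 did not pass. The list median was 0.02. Mid1ip1, a paralogue of Thrsp that promotes assembly of the carboxylase, gave 3.93, 4.06 and 4.23 in control livers and 3.30, 3.65 and 3.41 in sEV livers. Its groups did not overlap, and its log2 fold change was -0.62 ± 0.13 (adjusted p 0.0254). That call ended with each liver but sEV 2 left out (highest adjusted p 0.0773). Aspscr1, a list member whose role in that regulation was not tested, rose by 0.39 ± 0.09 (adjusted p 0.0361). The Aspscr1 call ended with any liver left out (adjusted p 0.0523 to 0.105) and with median scaling (0.31, adjusted p 0.0931). In row 1 the estimates were -0.78 for Mid1ip1 and 0.41 for Aspscr1.

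Of 22 genes of chain elongation, desaturation and fatty acid activation, 2 were higher, 5 were lower and 15 did not pass. The median of the 22 was -0.08. The acyl-CoA synthetase genes Acsl3 and Acsl1 had -1.49 ± 0.18 (adjusted p 0.00582) and -0.52 ± 0.09 (adjusted p 0.0141). Elovl2, an elongase of polyunsaturated chains, had -0.67 ± 0.12 (adjusted p 0.0200), and Elovl3, an elongase of long saturated chains, rose by 1.56 ± 0.31 (adjusted p 0.0229). The remaining 3 were named after their values were seen. Fads2 had -0.63 ± 0.13 and Elovl5 -0.49 ± 0.12, both enzymes of polyunsaturated fatty acids, and Scd3, a paralogue of Scd1, rose by 0.83 ± 0.21 (adjusted p 0.0437). In row 1 the estimates were -1.87 for Acsl3, -0.51 for Acsl1, -0.57 for Elovl2 and 1.59 for Elovl3, and with normexp Acsl3 was -0.98. Acsl3 kept its call with any liver left out. The others lost it: Acsl1 without control 3, Elovl2 and Fads2 without control 1, control 2, sEV 2 or sEV 3, Elovl3 without control 1, control 3, sEV 1 or sEV 2, Elovl5 with each liver but control 3 left out, and Scd3 with each but control 1 (highest adjusted p 0.121).

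In glyceride synthesis 2 of 13 genes were higher, 1 was lower and 10 did not pass. Over the 13 genes the median was 0.13. Mogat1, a monoacylglycerol acyltransferase gene, had -1.01 ± 0.10 (adjusted p 0.00326), with -0.64 under normexp. Agpat6, now named Gpat4, an enzyme that starts glycerolipid synthesis, rose by 0.63 ± 0.11 (adjusted p 0.0178), and Dgat1, which makes triglyceride, rose by 0.32 ± 0.08 (adjusted p 0.0440). In row 1 the estimates were -1.04 for Mogat1, 0.73 for Agpat6 and 0.37 for Dgat1. The Dgat1 call ended with any liver left out (adjusted p 0.0667 to 0.130) and with median scaling (0.25, adjusted p 0.174), and the Agpat6 call without control 2 or sEV 2 (highest adjusted p 0.0527).

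**Figure D5:**
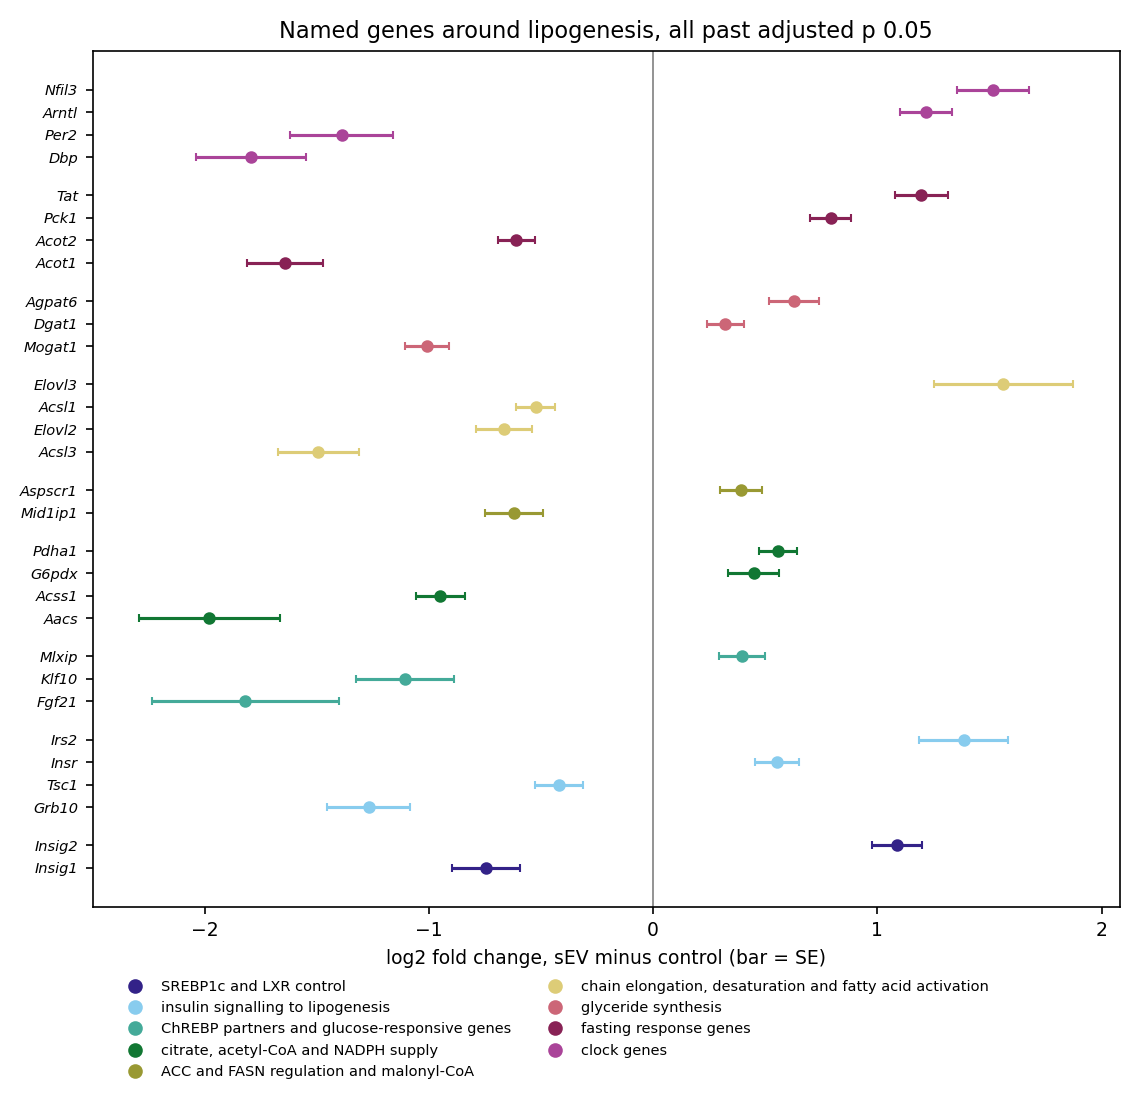
Log2 fold change of sEV minus control (x axis) with its standard error for the 30 named genes of the 9 lists, coloured by list, every one past the adjusted p threshold of 0.05. The points lie on both sides of 0 in each list, from -1.98 (Aacs) to 1.56 (Elovl3).

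Fasting and the time of day both act on lipogenic genes, so their lists were read beside the members. Of 22 fasting response genes, 2 were higher, 5 were lower and 15 did not pass. The list median was -0.13. Tat and Pck1, enzymes of amino acid breakdown and gluconeogenesis, rose by 1.20 ± 0.12 and 0.79 ± 0.09, while the acyl-CoA thioesterase genes Acot1 and Acot2 had -1.64 ± 0.17 and -0.61 ± 0.08. Of 16 measured clock genes, 4 were higher, 3 were lower and 9 did not pass. Arntl and Nfil3 rose by 1.22 ± 0.12 and 1.51 ± 0.16, and the output gene Dbp and the repressor gene Per2 had -1.79 ± 0.25 and -1.39 ± 0.23. Row 1 gave estimates of 1.36 for Tat, 0.90 for Pck1, -1.51 for Acot1, -0.55 for Acot2, 1.12 for Arntl, 1.34 for Nfil3, -1.77 for Dbp and -1.27 for Per2. The calls held with any liver left out, except that of Per2 without control 1 (adjusted p 0.0518). The part of feeding state and hour of dissection in the members' values was not tested.

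The labelled tissue was checked against its markers. All 12 hepatocyte markers were measured, 4 of them higher and none lower in sEV livers by limma, and their summed log2 level was 12.77 to 12.94 in control and 12.94 to 13.19 in sEV livers. In bulk tissue fewer cells of a type and less RNA per cell cannot be told apart. Adipocytes also make these enzymes: 8 of 12 adipocyte markers passed the filter, Adipoq, Cfd, Retn and Plin1 did not. Of the 8, Lep (0.48) and Lipe (0.47) were higher and Adrb3 (-1.48) was lower, and the summed level was 3.87 to 4.08 in control and 3.89 to 3.93 in sEV livers. Of the other lists, macrophage markers were higher for 6 of 11 genes (summed level 7.25 to 7.67 in control and 7.79 to 7.93 in sEV livers). Neutrophil markers were higher for 5 of 10 (7.25 to 7.54 and 7.75 to 7.88). Of all genes 9.08% were higher and 7.95% lower. The 5 higher neutrophil markers were Elane, Mpo, Ngp, S100a8 and S100a9. The other 5 did not pass, and 2 of them had negative estimates, Ly6g (-0.07 ± 0.16) and Csf3r (-0.89 ± 0.75). Stellate and fibroblast markers were lower for 4 of 10 (6.92 to 7.42 and 6.49 to 6.95) and erythroid markers for 4 of 8 (9.76 to 9.89 and 8.22 to 9.92), while sinusoidal (1 of 9), cholangiocyte (1 of 6) and acinar (1 of 4) lists each had 1 lower gene. With row as a block, on sEV 1 alone, none of the calls on macrophage, neutrophil, stellate or adipocyte markers passed, 1 of the 4 erythroid and 2 of the 4 hepatocyte calls did, and the list medians were 0.58 for macrophage (0.59 over all livers), 0.92 for neutrophil (1.17) and -0.33 for stellate markers (-0.31). The part of these cells in the members' values was not tested.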

How the data were processed

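Cy3-labelled RNA of 6 livers, 3 control and 3 sEV, was hybridised to 1 Agilent array per liver, per the labels' protocols. The submitters' processing notes name Agilent Feature Extraction 10.7.1.1. The treatment label set the group, and each liver came from its own mouse. The deposited scanner files hold processed, mean and background intensity per spot, and per the file headers the processed intensity was background-subtracted. The authors' deposited value table holds log2 values. They correlated with log2 processed signal (r at least 0.9995), had a median of 4.50 on every array, and served as an alternative. How that table was normalized is not stated in the labels.

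Values were log2 processed signal minus the 75th percentile of the array (268 to 281 intensity units in sEV and 294 to 339 in control livers). Control spots and outlier-flagged spots (91 to 171 per array) were dropped and spots of a probe averaged. Probes had to be well above background on 3 or more of the 6 arrays, and 6 probes that lost a value to a flag were left out. No spot was saturated. The brightest probe stood for its gene. On each array 49.9% to 54.7% of spots were well above background, and arrays correlated at 0.991 to 0.995 within and 0.975 to 0.984 between groups. The number of arrays limits the precision. The test was limma's moderated one (version 3.58.1, lmFit then eBayes, in R 4.3.3) without covariates, and p-values were adjusted by Benjamini-Hochberg over 19446 genes or 28760 probes, with a threshold of 0.05. The script was tested on simulated data. Errors given as ± are standard errors from the fit. Plots used Python 3.11.15 and matplotlib 3.10.9.

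Alternatives changed scaling, background correction (normexp with offset 50), value source, filter, probes per gene, variance model, array weights, slide row and replicate number, or left out 1 array, 18 settings in all. The members and lists were chosen with earlier results of these data known. The text names all 10 members with every probe, and up to 4 genes past the threshold from each pathway list (those with the largest moderated t). It also names Alb, Actb, Gapdh and the 5 genes nearest to Fasn once placeholder gene names of set forms were left out. Outside that rule, Fads2, Elovl5, Scd3 and the adipocyte and neutrophil markers were named after their values were seen. Symbols follow the array annotation. Probe coordinates (mm9) and promoters (GRCm38.p6) are of different builds and were not joined.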

Additional observations from a re-analysis of the deposited data

How the results depend on the processing

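The 10 members gave 1 call, and 18 other settings gave 0 to 3. Scaling to the array median left 1 call, Me1 lower in place of Acacb higher, and the share of higher genes among all calls went from 53.3% to 36.9%. With no filter on dim probes the median of all genes moved to 0.20. Counts that moved are given as members, member probes, pathway-list genes and all genes, the reported counts being 1, 1, 39 and 3312. With no filter on dim probes they were 0, 0, 13 and 810. With slide row as a block 0 members, 12 list genes and 715 genes passed, and the 4 arrays of row 1 alone, where sEV 1 is assumed to vary like the controls, gave 0 members, 0 probes, 9 list genes and 594 genes. Normexp gave 3 members and 4 probes, the trended robust model 3 and 4, array weights 2 and 4, and the filter on all 6 arrays 2 and 3. Median scaling gave 0 probes. Leaving out 1 liver gave 0 to 1 members, 0 to 1 probes, 19 to 31 list genes and 1348 to 2767 genes. Replicates that share a number in the labels had deviations correlated at 0.02, 0.16 and 0.02, so the number was not taken as a pair. With it as a replicate block 2 members, 3 probes and 2210 genes passed, and Scd1 was the added member (adjusted p 0.0295). Directions turned for 4 members. Acaca was 0.063 with array weights and -0.16 to 0.17 with 1 liver left out, above 0 without control 1 (0.0029) and without sEV 1. Fasn was 0.071 with array weights and -0.33 to 0.26 with 1 liver left out, above 0 without control 1 (0.058) and without sEV 1. Mlxipl was 0.099 with slide row as a block and in row 1, and -0.073 to 0.091 with 1 liver left out, above 0 without control 3 (0.071) and without sEV 2. Thrsp was -0.018 with slide row as a block and in row 1. Acacb, Acly, Scd1, Me1, Srebf1 and Elovl6 kept their direction in all 18 settings, with Elovl6 from -1.03 to -0.25. The cause of these changes was not tested.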
